A study of Homo sapiens with 8 samples.

Results

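The CpG sites described here are those at which the prostate cancer line PC3 stood apart from the other 3 lines of the study in DNA methylation. A site was taken when its methylation level in PC3 was at least 0.3 above that in each of DU145, LNCaP-FGC and RWPE-1, or at least 0.3 below that in each of them. Levels are beta values, the fraction of a site's signal that comes from methylated DNA, which run from 0 (unmethylated) to 1 (fully methylated). Of 27541 sites with a beta in all 4 lines, 775 met the rule, 456 of them higher and 319 lower in PC3. The sites were chosen from these betas, so their separation from the other lines is a description of the choice and was not tested.

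The study compared cultured prostate cell lines, with 1 methylation array and 1 expression array for each line, 8 samples in all. PC3, DU145 and LNCaP-FGC are prostate cancer lines, and RWPE-1 is labelled as the normal control. PC3 was established from a bone metastasis of prostate carcinoma, DU145 from a brain metastasis and LNCaP-FGC from a lymph node metastasis. LNCaP cells express the androgen receptor and respond to androgen, whereas PC3 and DU145 grow independently of it. RWPE-1 is non-cancerous prostate epithelium immortalized with papillomavirus genes, and so is itself an altered line and not tissue. The labels give no treatment, time point or repeat culture. Each group is therefore 1 line on 1 array, differences between lines have no replicate error, and no p-value is given. Whether a difference belongs to the line or to its array cannot be told apart.

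In mammalian DNA, methyl groups are placed on cytosines that precede guanines and are copied to the new strand at each cell division by the maintenance methyltransferase DNMT1. CpG islands at promoters are mostly unmethylated in normal cells, and dense methylation there goes with a silent gene. CpGs outside islands are mostly methylated. Cancer cells commonly gain methylation at some islands and lose it over much of the remaining genome. The array used here samples CpGs mainly near gene promoters. A level between the extremes can come from methylation of some of the alleles or of some of the cells, which a beta value does not separate. The table of betas gives site identifiers without genes or positions, so no gene, sequence or coordinate is given for a site, and the expression arrays, whose probes are likewise unnamed, were not joined to the sites. For the same reason the lines were not checked against prostate cell type markers here.

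The higher sites made up 1.66% of all sites compared and the lower sites 1.16%, together 2.81%. These shares follow from the rule and carry no information of their own about the members. At the higher sites the usual picture was a site with little methylation in the other lines that carried a large amount in PC3. The median beta at these sites was 0.740 in PC3, against 0.0831 in DU145, 0.0820 in LNCaP-FGC and 0.0517 in RWPE-1. The middle 50% of the sites lay between 0.538 and 0.875 in PC3, between 0.0293 and 0.273 in DU145, between 0.0358 and 0.222 in LNCaP-FGC and between 0.0297 and 0.148 in RWPE-1. RWPE-1 thus had the narrowest spread of the lines at these sites and the lowest median. Low levels in the other lines were common on the whole array, and a higher level in PC3 was required by the rule. Over all 27541 sites the medians were 0.104 in PC3, 0.0761 in DU145, 0.0772 in LNCaP-FGC and 0.0570 in RWPE-1. RWPE-1 also had the narrowest middle 50% over all sites, from 0.0259 to 0.491. At the lower sites the median beta was 0.190 in PC3, against 0.856 in DU145, 0.754 in LNCaP-FGC and 0.781 in RWPE-1. The middle 50% lay between 0.119 and 0.3104 in PC3, between 0.783 and 0.907 in DU145, between 0.617 and 0.852 in LNCaP-FGC and between 0.644 and 0.857 in RWPE-1. DU145 held the highest levels of the lines there. Over all sites DU145 was likewise above 0.8 most often, at 24.2% against 15.9% in PC3, 14.7% in LNCaP-FGC and 13.2% in RWPE-1.

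**Figure D1:**
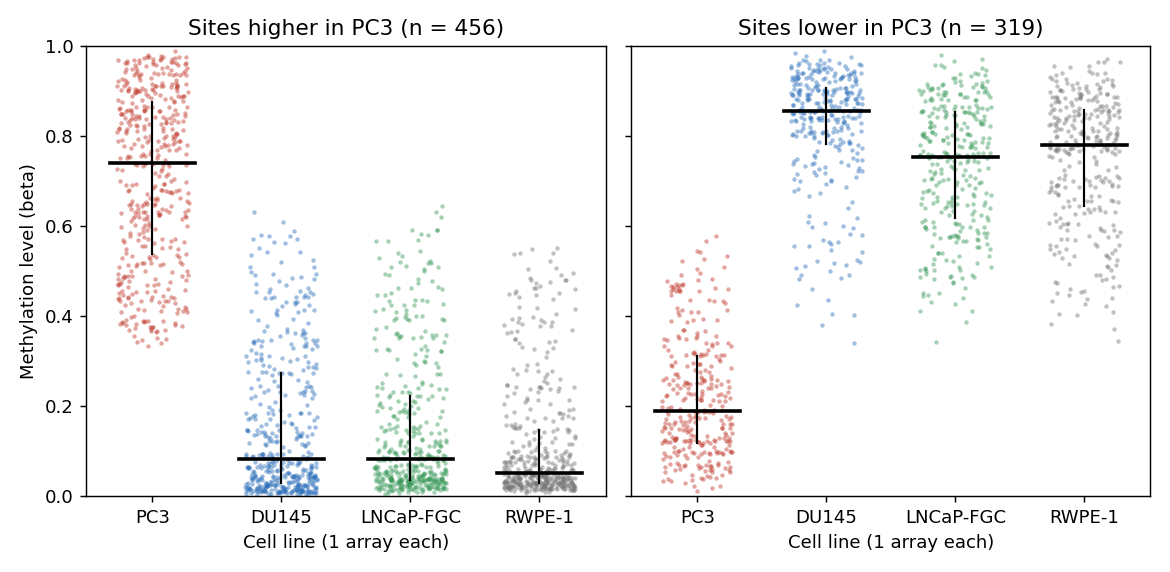
Methylation level (beta, vertical axis) of every member site in each of the 4 lines, with the 456 sites higher in PC3 on the left and the 319 lower sites on the right. Each point is a site on 1 array, the horizontal bar is the median and the vertical bar spans the middle 50% of sites. PC3 reaches from 0.334 to 0.988 at the higher sites, and from 0.0124 to 0.579 at the lower sites.

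Single sites show how far the separation went. The widest gap among the higher sites was at cg12024906, where the beta was 0.971 in PC3, 0.00977 in DU145, 0.0169 in LNCaP-FGC and 0.0210 in RWPE-1. The second was cg11638200, with 0.961 in PC3, 0.0118 in DU145, 0.0239 in LNCaP-FGC and 0.0254 in RWPE-1. Both were all but fully methylated in PC3 and all but unmethylated in the other lines. Among the lower sites the widest gap was at cg09996240, where PC3 had 0.0986 and DU145, LNCaP-FGC and RWPE-1 had 0.984, 0.967 and 0.971. The next was cg00597076, with 0.0180 in PC3 against 0.958, 0.901 and 0.854 in the same order of lines. These 4 sites are the extremes of the ranking. The site in the middle of the higher group by gap had a beta of 0.862 in PC3, 0.408 in DU145, 0.435 in LNCaP-FGC and 0.0866 in RWPE-1. The site in the middle of the lower group had 0.0304 in PC3, 0.491 in DU145, 0.518 in LNCaP-FGC and 0.435 in RWPE-1. At the first of these sites RWPE-1 was near the bottom of the scale and both other cancer lines were intermediate, and at the second all 3 other lines were intermediate.

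The gap between PC3 and the nearest other line had a median of 0.426 at the higher sites and 0.404 at the lower ones. It reached 0.950 at the higher and 0.868 at the lower sites. A gap of at least 0.5 was found at 149 higher sites (32.7%) and 78 lower sites (24.5%). A gap of at least 0.7 was found at 62 higher sites (13.6%) and 10 lower sites (3.13%). By the same gap DU145 was higher at 117 sites and lower at 13, LNCaP-FGC at 255 and 73, and RWPE-1 at 3 and 102. A gap of 0.7 upward needs the other lines at or below 0.3, and downward at or above 0.7. Sites with that room were not counted. The members shaded into the remaining sites without a break. Just inside the threshold, higher sites had gaps of 0.3006 and 0.3012, with PC3 at 0.880 and 0.932 and the nearest line, DU145, at 0.580 and 0.631. Just outside it, the gaps were 0.2996 and 0.299, with PC3 at 0.861 and 0.965 and DU145 at 0.561 and 0.666. For the lower sites the gaps just inside were 0.3005 and 0.3006, with PC3 at 0.296 and 0.462, against RWPE-1 at 0.597 and LNCaP-FGC at 0.763. Those just outside were 0.2998 and 0.299, with PC3 at 0.281 and 0.155 against RWPE-1 at 0.580 and 0.455. A band of gaps from 0.3 to 0.35 held 116 higher and 79 lower sites, and the band from 0.25 to 0.3 on the other side held 136 and 133.

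**Figure D2:**
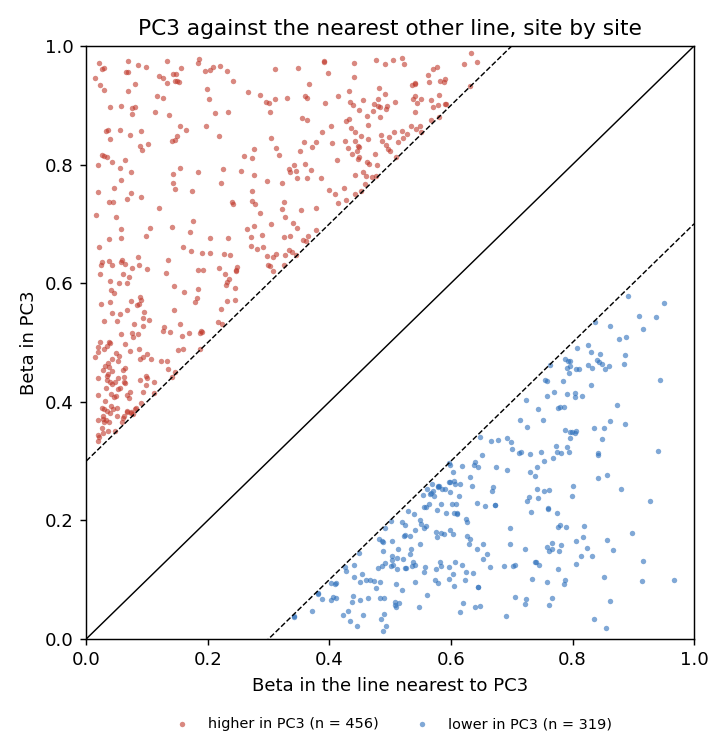
Beta in PC3 (vertical axis) against beta in the line nearest to PC3 (horizontal axis), 1 point per member site. The solid line marks equal levels and the dashed lines a difference of 0.3. Many higher sites lie at the left edge, where the nearest line is close to unmethylated, whereas lower sites are spread over nearest-line betas from 0.341 to 0.967.

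The levels of the higher sites in PC3 fell into different kinds. Sites are called unmethylated below a beta of 0.2, methylated above 0.8 and intermediate between. PC3 was methylated at 185 higher sites (40.6%) and intermediate at 271 (59.4%), and it was above 0.9 at 90 of them. The other lines were all unmethylated at 242 of the 456 sites (53.1%). This was common on the whole array too, since 12839 of all 27541 sites were unmethylated in all 4 lines, PC3 included. The classes of the other 3 lines alone were not counted over all sites. Within these 242, PC3 was methylated at 56 sites, with a median beta of 0.914 against 0.0434 in DU145, 0.0416 in LNCaP-FGC and 0.0320 in RWPE-1. These 56 are switches from one end of the scale to the other. At the remaining 186, the most frequent pattern of all, PC3 was intermediate, with a median of 0.4997 against 0.0419 in DU145, 0.0410 in LNCaP-FGC and 0.0374 in RWPE-1. Methylation at these sites was thus partial in PC3 and near the bottom of the scale in every other line. The cutoffs favour the 186 over the 56, because a switch between the ends needs a wider gap than the rule asks for. A gap of at least 0.6 was found at 21.3% of the higher sites. The part of the cutoffs in this split was not tested. All 3 other lines were intermediate at 35 sites, and at 179 sites (39.3%) they were of mixed classes. The mixed sites had a median of 0.826 in PC3, 0.246 in DU145, 0.201 in LNCaP-FGC and 0.0968 in RWPE-1.

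At the lower sites the other lines were most often of mixed classes. PC3 was unmethylated at 166 of 319 (52.0%) and intermediate at 153 (48.0%), and it was below 0.1 at 66. All 3 other lines were methylated at 62 sites (19.4%), all 3 were intermediate at 59 (18.5%), and at 198 sites (62.1%) they were of mixed classes. Over all 27541 sites, 1570 were methylated in all 4 lines, PC3 included. The classes of the other 3 lines alone were not counted there, so these shares have no matching background. Only 17 sites went from methylated in all 3 other lines to unmethylated in PC3, with a median of 0.139 in PC3 against 0.928 in DU145, 0.866 in LNCaP-FGC and 0.888 in RWPE-1. At 45 sites the other lines were all methylated and PC3 was intermediate, with a median of 0.456 against 0.915, 0.880 and 0.878 in DU145, LNCaP-FGC and RWPE-1. Partial loss was therefore counted more often than complete loss where every other line was methylated. The cutoffs favour this order, because a fall from methylated to unmethylated needs a wider gap than the rule asks for. A gap of at least 0.6 was found at 12.9% of the lower sites. How far the cutoffs set the order was not tested. A further 41 sites were intermediate in all 3 other lines and unmethylated in PC3, with medians of 0.117 in PC3, 0.702 in DU145, 0.583 in LNCaP-FGC and 0.632 in RWPE-1.

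The other 3 lines differed among themselves at many of these sites. Their range, from the lowest to the highest of the 3, had a median of 0.111 at the higher sites and 0.170 at the lower sites, against 0.0663 over all 27541 sites. The upper quartile of this range ran the other way, at 0.265 for the higher and 0.287 for the lower sites against 0.387 over all sites. At 301 higher sites (66.0%) the other lines lay within 0.2 of one another, and at 214 (46.9%) within 0.1. At the lower sites these numbers were 178 (55.8%) and 90 (28.2%). Over all sites the median range of 0.0663 means that most lay within 0.1. The rule also bounds the range at the members, because all 3 lines must lie at least 0.3 from PC3 on the same side. At the 301 higher sites the medians were 0.623 in PC3, 0.0519 in DU145, 0.0532 in LNCaP-FGC and 0.0416 in RWPE-1. At the 178 lower sites they were 0.260 in PC3, 0.870 in DU145, 0.792 in LNCaP-FGC and 0.823 in RWPE-1.

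At a smaller number of sites 1 of the other lines went part of the way with PC3, lying at least 0.2 from the remaining pair on the side of PC3. Among the higher sites this line was LNCaP-FGC at 37, DU145 at 31 and RWPE-1 at 12. At the 37 sites the medians were 0.902 in PC3, 0.447 in LNCaP-FGC, 0.0688 in DU145 and 0.0473 in RWPE-1, a graded series with PC3 at the top. At the 31 sites they were 0.846 in PC3, 0.440 in DU145, 0.0523 in LNCaP-FGC and 0.0545 in RWPE-1. Among the lower sites the line part of the way was LNCaP-FGC at 31, RWPE-1 at 24 and DU145 at 7. At the 31 sites the medians were 0.139 in PC3, 0.524 in LNCaP-FGC, 0.881 in DU145 and 0.847 in RWPE-1. Part-way sites were not counted over all 27541 sites, so these counts have no matching background. By a different rule, the lines differed over all sites in how often each stood highest or lowest by 0.3, PC3 included. LNCaP-FGC was highest at 1109, DU145 at 1307 and RWPE-1 at 108, and in that order they were lowest at 912, 170 and 932. The part of these tendencies in the part-way counts was not tested.

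Which line was nearest to PC3 differed between the groups. At the higher sites the nearest line was DU145 at 183 sites (40.1%), LNCaP-FGC at 169 (37.1%) and RWPE-1 at 104 (22.8%). At the lower sites it was LNCaP-FGC at 163 (51.1%), RWPE-1 at 120 (37.6%) and DU145 at 36 (11.3%). The line farthest from PC3 at the higher sites was DU145 at 176 (38.6%), RWPE-1 at 161 (35.3%) and LNCaP-FGC at 119 (26.1%). At 217 of the 319 lower sites (68.0%) the farthest line was DU145. By the rule the nearest line is the highest of the other lines at a higher site and the lowest at a lower site. How often each line holds these places over all sites was not counted. Over all sites DU145 had the highest mean beta, 0.340 against 0.302 in PC3, 0.288 in LNCaP-FGC and 0.258 in RWPE-1. The DU145 array also had the widest scale of betas. At 1570 sites methylated in all 4 lines its median was 0.925, against 0.904 in PC3, 0.8999 in RWPE-1 and 0.889 in LNCaP-FGC, and at 12839 sites unmethylated in all 4 it was 0.0171 against 0.0384 in PC3, 0.0293 in LNCaP-FGC and 0.0273 in RWPE-1. The part of this scale, and of the higher mean of DU145, in the order of the lines was not tested.

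Set against the control line, every higher site is a gain of methylation in PC3 and every lower site a loss, by the rule. The other cancer lines were about as often close to RWPE-1 there as over all sites compared, where DU145 lay within 0.2 of RWPE-1 at 21670 of 27541 sites (78.7%), LNCaP-FGC at 20659 and both at 17965 (65.2%). The rule also keeps the other lines on one side of PC3, which bounds their distance from RWPE-1. At the higher sites DU145 lay within 0.2 of RWPE-1 at 376 sites (82.5%) and LNCaP-FGC at 359 (78.7%), and both did at 316 (69.3%). At the lower sites DU145 did so at 252 (79.0%) and LNCaP-FGC at 244 (76.5%), and both at 207 (64.9%). At some sites another cancer line differed from RWPE-1 by at least 0.3 as well. Among the higher sites DU145 was above RWPE-1 by this much at 34 and below it at 9, and LNCaP-FGC was above it at 34 and below it at 13. Among the lower sites DU145 was above RWPE-1 at 27, opposite to PC3, and below it at 9. LNCaP-FGC was above it at 19 and below it at 15. Such differences were common on the whole array. Over all 27541 sites DU145 was above RWPE-1 by 0.3 at 3873 and below it at 503. LNCaP-FGC was above it at 3218 and below it at 2023. The member counts were not tested against these.

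The members are a part of the PC3 differences from RWPE-1, namely those at which PC3 also lay at least 0.3 beyond both other cancer lines. PC3 was at least 0.3 above RWPE-1 at 2770 sites, of which the 456 higher sites are 16.5%, and at least 0.3 below it at 1270 sites, of which the 319 lower sites are 25.1%. By the same rule, sites setting DU145 apart were 33.7% of its gains and 33.8% of its losses, and those setting LNCaP-FGC apart were 34.5% of its gains and 45.1% of its losses. All of these shares use the same RWPE-1 array, so they are not separate measurements. PC3 had the smallest share of the 3 cancer lines in either direction on deposited, rescaled and quantile normalized betas. Within PC3, quantile normalization turned the order of the shares, to 24.0% of gains and 19.3% of losses. After the same step DU145 had 28.1% and 26.1%, and LNCaP-FGC 44.5% and 33.5%.

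Over all lines, PC3 was set apart at the fewest sites. The rule gave 775 sites for PC3, 1040 for RWPE-1, 1477 for DU145 and 2021 for LNCaP-FGC. In each direction alone PC3 was not the lowest, since 108 sites (0.392% of all compared) were higher by 0.3 in RWPE-1 than in each other line and 170 (0.617%) were lower by 0.3 in DU145. Sites higher by this rule made up 4.75% in DU145 and 4.03% in LNCaP-FGC, and sites lower by it 3.31% in LNCaP-FGC and 3.38% in RWPE-1. The sites open to a difference are unequal, because a site can be higher by 0.3 only where the other lines are at or below 0.7, and lower only where they are at or above 0.3. Of 17742 sites with room, PC3 was higher at 2.57%, and of 6334 with room it was lower at 5.04%. Higher sites therefore outnumbered lower ones in PC3 while taking up a smaller share of the sites that could show them, and the same held on quantile normalized betas, with 2.82% and 5.36%. For DU145 the shares were 6.90% and 2.80%, for LNCaP-FGC 6.09% and 13.2% and for RWPE-1 0.618% and 13.6%. Quantile normalization turned the order in DU145, to 2.69% and 5.33%, and gave 6.47% and 12.1% in LNCaP-FGC and 1.70% and 7.44% in RWPE-1.

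**Figure D3:**
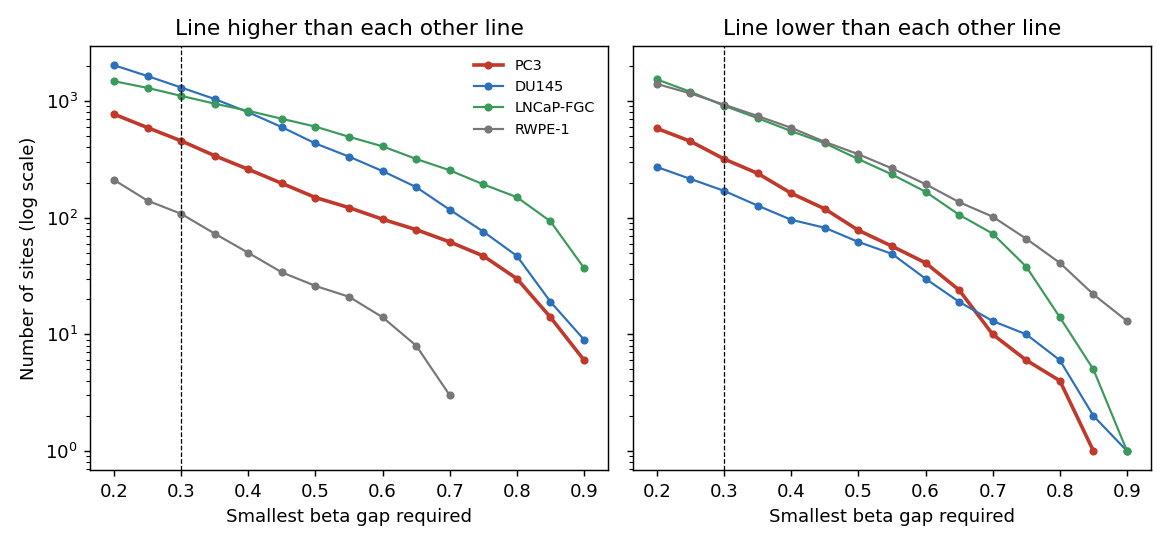
Number of sites (log scale) at which each line lay above each other line (left) or below each other line (right) by at least the gap on the horizontal axis, in beta. Each curve is 1 line, points with no site are not drawn, and the dashed line marks the gap of 0.3 used for the members. PC3 lies between RWPE-1 and both other cancer lines on the left at every gap drawn, and on the right it crosses below DU145 at a gap of 0.7, with 10 sites against 13.

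The place of PC3 among the lines depended on the scaling of the arrays. When the betas of the 4 arrays were forced to a common distribution by quantile normalization, the rule gave 874 sites for PC3, 851 for DU145, 810 for RWPE-1 and 2086 for LNCaP-FGC, so PC3 was no longer the line with the fewest. The PC3 counts themselves moved little, to 516 higher and 358 lower sites, and 404 of the 456 higher and 266 of the 319 lower sites were found again. At each of the 775 members PC3 remained the highest or the lowest line after this normalization, and the smallest gap left was 0.178 at the higher and 0.111 at the lower sites. The counts of DU145 went from 1307 to 494 higher and from 170 to 357 lower sites, and those of RWPE-1 from 108 to 314 higher and from 932 to 496 lower sites. Linear rescaling of each array to shared medians at the always-methylated and always-unmethylated sites left the order as deposited, with 796 sites for PC3, 1048 for RWPE-1, 1408 for DU145 and 2048 for LNCaP-FGC.

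**Figure D4:**
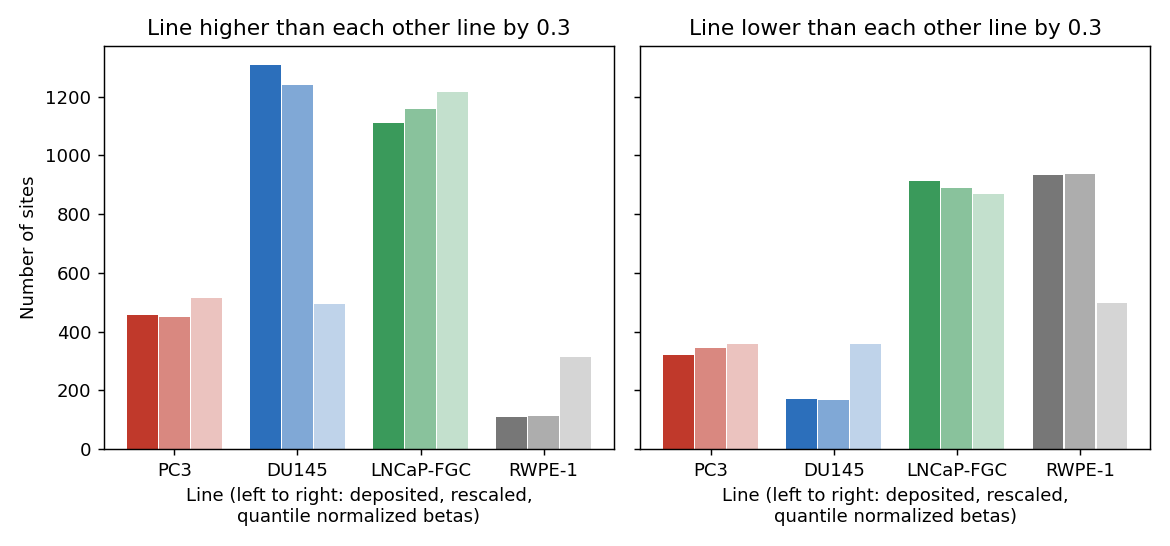
Number of sites at which each line was higher (left) or lower (right) than each other line by at least 0.3 in beta. The bars of each line are, from left to right, the deposited betas, linearly rescaled betas and quantile normalized betas, each from 1 array per line. The PC3 bars run from 450 to 516 higher and from 319 to 358 lower sites, whereas the DU145 bars for higher sites run from 1307 down to 494.

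Within the members, levels in different lines rose and fell together only loosely. Across the 456 higher sites, Pearson's r between PC3 and the other lines was 0.426 for DU145, 0.450 for LNCaP-FGC and 0.365 for RWPE-1. Across the 319 lower sites it was 0.326 for DU145, 0.401 for LNCaP-FGC and 0.454 for RWPE-1. The rule cuts away every site at which PC3 was near another line and so bounds these values. They describe sites on the same 4 arrays, which are not independent. Over all 27541 sites the values with PC3 were 0.787, 0.740 and 0.773 for DU145, LNCaP-FGC and RWPE-1. Pairs without PC3 were also looser at the members. For DU145 with LNCaP-FGC, DU145 with RWPE-1 and LNCaP-FGC with RWPE-1, r was 0.404, 0.470 and 0.371 at the higher sites. In the same order it was 0.236, 0.393 and 0.258 at the lower sites, and 0.682, 0.812 and 0.676 over all sites.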

How the data were processed

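DNA methylation of PC3, DU145, LNCaP-FGC and RWPE-1 was measured with 1 beadchip per line. Per the series text in the labels, genomic DNA was bisulfite-converted and the authors turned the signals for C and T into a beta value per CpG site. The authors deposited these beta values, a fraction from 0 to 1, and BeadStudio is the software in the submitters' processing notes. The sources used here name no normalization between arrays and no detection filter. The number of arrays limits the precision, and signal strength per site is unknown.

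Columns were matched to samples by name, and betas were used as deposited with pandas 2.3.3 and numpy 2.4.6. Of 27578 sites, 37 with a blank in any line were left out, 6 of them blank in PC3. Among those blank elsewhere, 1 would have been higher and 1 lower in PC3 than each line measured. The rule at a threshold of 0.3 was checked on simulated betas for PC3, and so were the quantile normalization and linear rescaling steps. The other alternatives were not checked in this way. Alternatives were other thresholds, scalings and scales, and leaving out each other line. The members, classes and lists were chosen with earlier results of these data known. Sites named are the 2 with the widest gap per direction. Planned comparisons with expression and with gene lists and cell type markers were not run, because the tables used here pair neither sites nor probes with genes.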

Additional observations from a re-analysis of the deposited data

How the results depend on the processing

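With 1 array per line, no value here has a replicate check, and signal over background is unknown. No paired analysis was possible because no result comes from a test and each line has 1 array. Counts of higher and lower sites (456 and 319) became 772 and 583 at a threshold of 0.2, and 260 and 162 at 0.4, as a looser or stricter threshold must. A difference of at least 2 on the log2(beta / (1 - beta)) scale, with betas held 0.01 from the limits, gave 882 higher and 416 lower sites, including 437 and 304 of the members. Quantile normalization (516 and 358) and linear rescaling (450 and 346) kept both counts within 1.5 times. With fewer lines to differ from, the counts could only grow. Without DU145 they were 1099 and 413, without LNCaP-FGC 963 and 989, and without RWPE-1 526 and 845. The share of higher sites, 58.8% with all lines, was 72.7% without DU145, 49.3% without LNCaP-FGC and 38.4% without RWPE-1, so the balance of higher and lower sites rested on which lines PC3 was set against. Under the other alternatives this share ran from 56.5% to 68.0%. The counts for every line on rescaled and normalized betas, and the shares of higher sites, were added after seeing the data. The alternatives planned for expression were not run.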
